A study of Mus musculus with 12 samples.

Results

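The hypothalamic transcripts of 8 genes of the kisspeptin neuron and of its hormonal inputs were examined: the peptide precursors Kiss1, Tac2, Pdyn and Gnrh1, the peptide receptors Kiss1r and Tacr3, and the steroid receptors Esr1 and Pgr. The 8 genes were chosen by name out of 19938 genes with a value, and each was read from its 1 probe set with a single gene symbol. All 8 passed the filter on low signals, which left 14953 genes for testing. That filter is a cut at the 25th percentile of mean signal and not a limit of detection. Gnrh1 (mean log2 signal 6.575, percentile 36.2) and Kiss1 (6.78, percentile 39.3) had the lowest signals of the 8. How far their signals lay above background was not tested. The samples were hypothalami of male C57BL/6J mice, 23 weeks old, made obese by 20 weeks on a diet with 45% fat that began at 3 weeks of age. After 4 daily intraperitoneal injections of the solvent DMSO, given to every mouse, the mice received daily injections for 4 further days. These held celastrol at 100 µg/kg (4 arrays), withaferin A at 2 mg/kg (4 arrays) or DMSO again (4 arrays). Celastrol and withaferin A are plant compounds that reduce food intake in obese mice. No lean or chow-fed mice are among these groups, so each comparison is between obese mice.

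Kisspeptin, cleaved from the Kiss1 product, is the strongest known stimulus of gonadotropin-releasing hormone (GnRH) neurons. In the arcuate nucleus the same neurons make neurokinin B from Tac2 and dynorphin from Pdyn. Neurokinin B starts their bursts of activity through the receptor Tacr3, and dynorphin ends them. Testosterone and estradiol restrain arcuate Kiss1 through steroid receptors, and adiposity and leptin act on the same cells, which links fertility to energy stores. These neurons are few, and the arrays measured RNA of the whole tissue. Fewer cells of a type and less RNA per cell therefore cannot be told apart.

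For the 8 genes no treatment difference passed the test. In limma's moderated test with Benjamini-Hochberg adjustment over all 14953 genes, 0 of 8 passed an adjusted p of 0.05 for celastrol versus DMSO, where 0.769% of all genes passed. The count was likewise 0 of 8 for withaferin A versus DMSO, where 0% of all genes passed, and 0 of 8 for withaferin A versus celastrol, where 0.0468% passed. At an unadjusted p below 0.05 the counts were 0, 1 and 1, namely none for celastrol versus DMSO, Tac2 for withaferin A versus DMSO and Kiss1 for withaferin A versus celastrol. Over all genes 10.4%, 15.7% and 16.1% were below that level in the same 3 comparisons. The arrays of 2 groups overlapped for every one of the 8 genes in every comparison, while 7.21%, 7.6% and 9.27% of all genes had groups that did not overlap.

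The 95% intervals give the size of change that these arrays leave possible. For celastrol versus DMSO they lay between log2 values of −0.33 and 0.25 over the 8 genes, or −20.4% to 19.2% in signal. Those of withaferin A versus DMSO lay between −0.35 and 0.34, or −21.8% to 27.0%. Between the compounds (withaferin A versus celastrol) the bounds were −0.29 and 0.38, or −18.2% to 30.1%. These bounds hold for the log2 signal of the array, which can understate a change in transcript number, and each interval is taken singly, without adjustment for the number of genes.

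**Figure D1:**
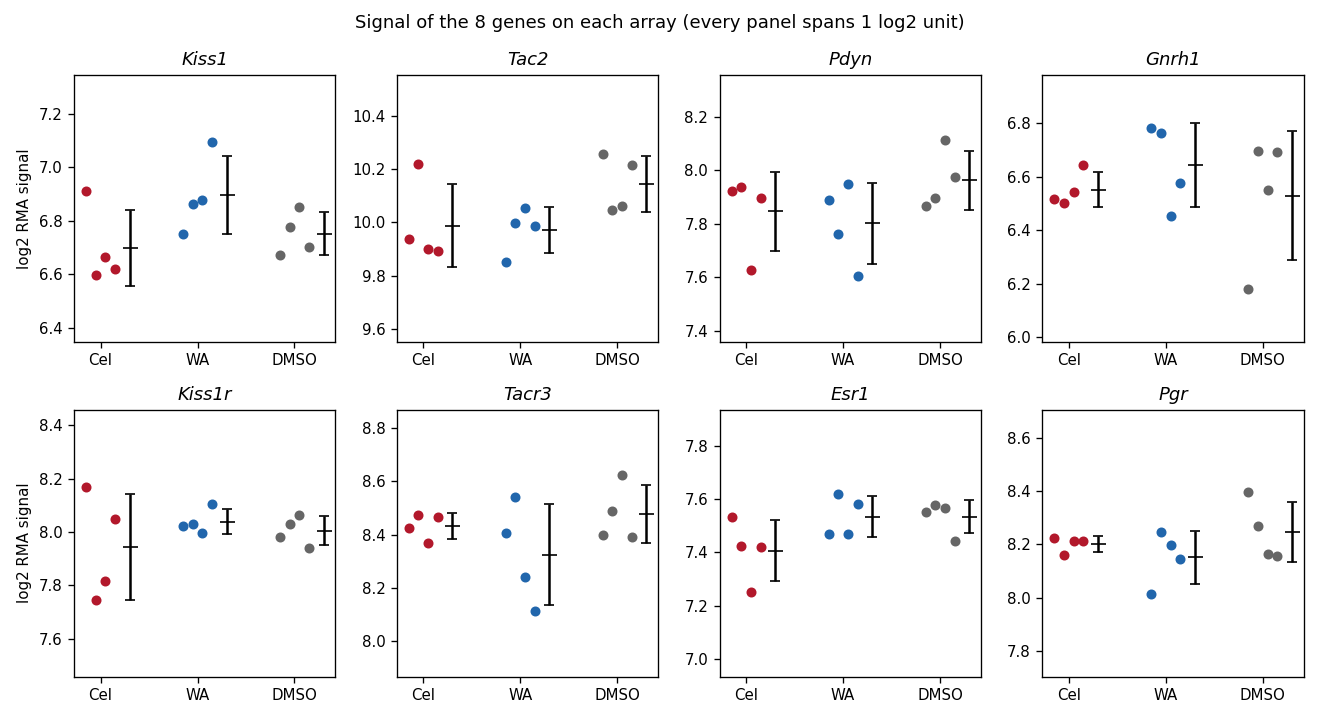
Signal of each of the 8 genes on each of the 12 arrays (vertical axis, log2 RMA signal; points, single arrays; bar, mean ± SD of 4 arrays) for celastrol (Cel), withaferin A (WA) and DMSO. Each panel spans 1 log2 unit around its own centre; the 3 groups overlap in every panel, and single arrays such as the second for celastrol in Tac2 or the first for DMSO in Gnrh1 stand away from the rest of their group.

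The upstream sequences of Kiss1 and Tac2 are given because Kiss1 is a textbook target of the estrogen receptor encoded by Esr1. These peptides also share neurons, while their estimates for withaferin A versus DMSO had opposite signs. Neither estimate passed the test, and for celastrol versus DMSO both were negative. The sequences hold the 250 bases before the start site listed by RefSeq (GRCm38.p6), 5′ to 3′ on the gene's strand. Capitals mark TGACC, the half-site of an estrogen response element, which was searched on both strands as TGACC and GGTCA.
Kiss1, chr1:133326962-133327211, plus strand: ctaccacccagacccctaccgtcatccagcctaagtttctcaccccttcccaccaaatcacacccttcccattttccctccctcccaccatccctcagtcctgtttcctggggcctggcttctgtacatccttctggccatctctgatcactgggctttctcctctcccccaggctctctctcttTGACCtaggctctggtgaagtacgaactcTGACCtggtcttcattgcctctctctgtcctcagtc
Tac2, chr10:127724228-127724477, plus strand: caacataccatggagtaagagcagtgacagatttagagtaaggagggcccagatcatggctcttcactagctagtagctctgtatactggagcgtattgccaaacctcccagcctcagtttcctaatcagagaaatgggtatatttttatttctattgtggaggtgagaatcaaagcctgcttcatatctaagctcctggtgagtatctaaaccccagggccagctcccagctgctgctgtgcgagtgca

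The Kiss1 window held 2 half-sites, which begin 65 and 36 bases before the start site, and the Tac2 window held 0. RefSeq windows were found for 7 of the 8 genes, Gnrh1 being the other, with 9 windows in all because Pdyn and Esr1 have several start sites. Of these 7 genes, 1 (Kiss1) held a half-site and 0 held the full palindrome GGTCANNNTGACC. Among all 32851 windows of this length, 35.2% held at least 1 half-site, 8.16% at least 2 and 0.0639% the palindrome. The Kiss1 window lies inside the gene's span in RefSeq, which begins upstream at 133321887, while the Tac2 window ends at the base before the gene's listed start, 127724478. A match of letters is a description, and no binding was measured in these samples.

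Kiss1 signal was 6.91, 6.60, 6.67 and 6.62 on the celastrol arrays, 6.75, 6.86, 6.88 and 7.10 on the withaferin A arrays, and 6.67, 6.78, 6.85 and 6.70 on the DMSO arrays. Withaferin A arrays were the highest on average and celastrol arrays the lowest, with 1 celastrol array above all DMSO arrays and 3 below them. The direct difference of withaferin A from celastrol was 0.20 ± 0.084 (SE, n = 4 per group), with a 95% interval of 0.018 to 0.38 and an adjusted p of 0.27. It was 0.27 without celastrol replicate 1 (adjusted p = 0.144) and 0.13 without withaferin A replicate 4 (adjusted p = 0.54). Against DMSO the differences were −0.053 ± 0.084 for celastrol (adjusted p = 0.887) and 0.15 ± 0.084 for withaferin A (adjusted p = 0.408). Leaving out celastrol replicate 1 gave −0.12 for celastrol, leaving out its replicate 2 or DMSO replicate 3 gave −0.019, and leaving out its replicate 4 gave −0.027. The withaferin A value was 0.080 without its replicate 4 and 0.097 after renewed quantile normalization. The order of the means was therefore withaferin A, DMSO, celastrol, and no neighbours in that order differed beyond the spread between arrays.

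Tac2, the neurokinin B precursor gene, had the most negative difference from DMSO of the 8 genes for either compound. Its signal was 9.94, 10.22, 9.90 and 9.89 on the celastrol arrays and 9.85, 9.997, 10.06 and 9.99 on the withaferin A arrays, against 10.26, 10.05, 10.06 and 10.21 on the DMSO arrays. In each treated group 3 of 4 arrays lay below the lowest DMSO array. The differences were −0.16 ± 0.080 for celastrol (95% interval −0.33 to 0.016, adjusted p = 0.526) and −0.17 ± 0.080 for withaferin A (−0.35 to −0.00020, adjusted p = 0.317). Both comparisons share the DMSO arrays, so their like size is not 2 separate observations. Celastrol replicate 2, at 10.22, was the only celastrol array within the DMSO range, and without it the celastrol difference was −0.23 (adjusted p = 0.236). That array also had the highest mean level of 8 pituitary markers among the 12 arrays, 1.81 above the DMSO mean. The other celastrol arrays had 0.30 to 0.39, the withaferin A arrays −0.017 to 0.38 and the DMSO arrays −0.15 to 0.12. Of the 8 pituitary markers Gh, Prl, Lhb, Cga and Tbx19 passed the filter on low signals, while Fshb, Tshb and Gnrhr did not. The part of pituitary tissue in the Tac2 signal was not tested.

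Tac2 is also strongly expressed in the medial habenula, which lies above the thalamus. The mean level of 5 habenula markers, relative to the DMSO mean, was −0.16 to 0.024 with celastrol, 0.0067 to 0.051 with withaferin A and −0.063 to 0.084 with DMSO. The groups overlapped. Pou4f1, the defining transcription factor of the habenula, was below the limit for dim genes, while the other 4 markers (Chrnb4, Chrna3, Gpr151 and Nwd2) were above it. For 4 arcuate markers (Pomc, Npy, Ghrh and Cartpt) the ranges were −0.076 to 0.14 with celastrol, −0.31 to 0.067 with withaferin A and −0.082 to 0.075 with DMSO. Pomc is also a pituitary gene. All 6 hypothalamic markers (Nkx2-1, Six3, Rax, Otp, Hcrt and Pmch) were above the limit for dim genes. Their mean level was −0.29 to −0.025 with celastrol, −0.15 to 0.018 with withaferin A and −0.11 to 0.14 with DMSO.

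Pdyn encodes prodynorphin, the source of the opioid peptide that brakes kisspeptin neurons. Its signal was 7.92, 7.94, 7.63 and 7.90 on the celastrol arrays and 7.89, 7.76, 7.95 and 7.60 on the withaferin A arrays, against 7.87, 7.90, 8.11 and 7.98 on the DMSO arrays. Celastrol replicate 3 stood apart below its group, and the withaferin A arrays were spread more evenly, with replicate 4 the lowest of the 12. The differences from DMSO were −0.12 ± 0.089 for celastrol (adjusted p = 0.722) and −0.16 ± 0.089 for withaferin A (adjusted p = 0.396). Without celastrol replicate 3 the first was −0.044 and without DMSO replicate 3 −0.067, and without withaferin A replicate 4 the second was −0.096.

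Vasopressin neurons also make dynorphin, and striatal neurons express Pdyn, so the markers of both are given, with those of the neighbouring thalamus. The mean of the magnocellular genes Avp and Oxt, relative to the DMSO mean, was −0.43 to −0.20 on the celastrol arrays, −0.22 to −0.090 on the withaferin A arrays and −0.084 to 0.050 on the DMSO arrays. Each treated array lay below each DMSO array on this measure. For single genes, 7.21% of all genes did not overlap for celastrol versus DMSO and 7.6% for withaferin A versus DMSO. Both Pdyn estimates were negative without passing the test. Celastrol replicates 1, 2 and 4, at −0.20, −0.32 and −0.26 on this measure, had Pdyn signals within the DMSO range. Celastrol replicate 3, at −0.43, had a Pdyn signal below it. Of 6 striatal symbols 3 had a value (Drd1, Ppp1r1b and Rgs9), with a mean level of 0.025 to 0.14 with celastrol, 0.017 to 0.11 with withaferin A and −0.10 to 0.081 with DMSO. The mean of 6 thalamic markers was −0.068 to 0.91 with celastrol, −0.34 to 0.67 with withaferin A and −0.56 to 0.69 with DMSO, so the groups overlapped. Celastrol replicate 3, with low Pdyn and the lowest Esr1 signal, had the highest thalamic level (0.91). Withaferin A replicate 4, with the lowest Pdyn, had 0.67, but its Esr1 signal of 7.58 was above the DMSO mean of 7.53. High thalamic levels also went with higher Pdyn: DMSO replicate 4 had 0.69 with a Pdyn signal of 7.98, and withaferin A replicate 3 had 0.56 with 7.95. The part of these cell types in the Pdyn and Esr1 values was not tested.

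Gnrh1, the precursor gene of GnRH, is made by scattered preoptic neurons and was the most variable of the 8 genes between arrays of a group. Its signal was 6.52, 6.50, 6.54 and 6.64 on the celastrol arrays, 6.78, 6.76, 6.45 and 6.57 on the withaferin A arrays, and 6.18, 6.69, 6.55 and 6.69 on the DMSO arrays. The spread with DMSO came from its first array, the lowest of the 12. The differences from DMSO were 0.023 ± 0.11 for celastrol (adjusted p = 0.966) and 0.11 ± 0.11 for withaferin A (adjusted p = 0.63). Without DMSO replicate 1 they were −0.093 and −0.0019, so no direction can be given. The residual SD of Gnrh1 was 0.171, at the 85.8th percentile of all genes tested, against a median of 0.107. That of the other 7 genes ran from 0.0877 for Esr1 to 0.138 for Pdyn.

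Kiss1r encodes the kisspeptin receptor of GnRH neurons. Its signal was 8.17, 7.75, 7.81 and 8.05 on the celastrol arrays, 8.02, 8.03, 7.996 and 8.11 on the withaferin A arrays, and 7.98, 8.03, 8.07 and 7.94 on the DMSO arrays. The celastrol arrays spanned both ends of the range, with an SD of 0.20, against 0.047 with withaferin A and 0.054 with DMSO. The differences of the means from DMSO were −0.059 ± 0.081 for celastrol (adjusted p = 0.869) and 0.035 ± 0.081 for withaferin A (adjusted p = 0.859). The second turned to −0.011 when each array was centred on its median, and the first to 0.0070 without celastrol replicate 2. The residual SD pooled over the groups was 0.122, which is below the SD of the celastrol group. The SE rests on this SD after limma drew it toward the spread of all genes tested.

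Tacr3, the neurokinin B receptor gene, had a signal of 8.42, 8.47, 8.37 and 8.47 on the celastrol arrays, 8.41, 8.54, 8.24 and 8.11 on the withaferin A arrays, and 8.40, 8.49, 8.62 and 8.39 on the DMSO arrays. The last 2 withaferin A arrays lay below every other array. The difference from DMSO was −0.15 ± 0.085 for withaferin A (95% interval −0.33 to 0.032, adjusted p = 0.401) and −0.080 without withaferin A replicate 4. For celastrol it was −0.043 ± 0.085 (adjusted p = 0.91), with a sign that turned without DMSO replicate 3 (0.0062).

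Esr1 encodes estrogen receptor alpha, the receptor through which estradiol, in males made from testosterone, acts on arcuate Kiss1 neurons. Its signal was 7.53, 7.42, 7.25 and 7.42 on the celastrol arrays, 7.47, 7.62, 7.47 and 7.58 on the withaferin A arrays, and 7.55, 7.58, 7.57 and 7.44 on the DMSO arrays. Of the celastrol arrays 3 lay below the lowest DMSO array, whereas the withaferin A arrays and the DMSO arrays both averaged 7.53 (SD 0.076 and 0.062, n = 4 each). The differences were −0.13 ± 0.065 for celastrol versus DMSO (95% interval −0.27 to 0.013, adjusted p = 0.525) and −0.00066 ± 0.065 for withaferin A versus DMSO (adjusted p = 0.997). Withaferin A exceeded celastrol by 0.13 ± 0.065 (adjusted p = 0.353), which did not pass, so the compounds are not shown to differ for Esr1. Without celastrol replicate 3 the value was −0.076 for celastrol versus DMSO and 0.076 for withaferin A versus celastrol.

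Pgr encodes the progesterone receptor, which estradiol induces in the hypothalamus. Its signal was 8.22, 8.16, 8.21 and 8.21 on the celastrol arrays, 8.01, 8.25, 8.20 and 8.14 on the withaferin A arrays, and 8.39, 8.27, 8.16 and 8.16 on the DMSO arrays. The celastrol arrays were close together (SD 0.029) and lay within the DMSO range. The differences from DMSO were −0.044 ± 0.065 for celastrol (adjusted p = 0.878) and −0.095 ± 0.065 for withaferin A (adjusted p = 0.496). Without DMSO replicate 1, the highest of the 12 arrays, the celastrol value was 0.0058 and the withaferin A value −0.045. The withaferin A value was −0.049 without withaferin A replicate 1.

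**Figure D2:**
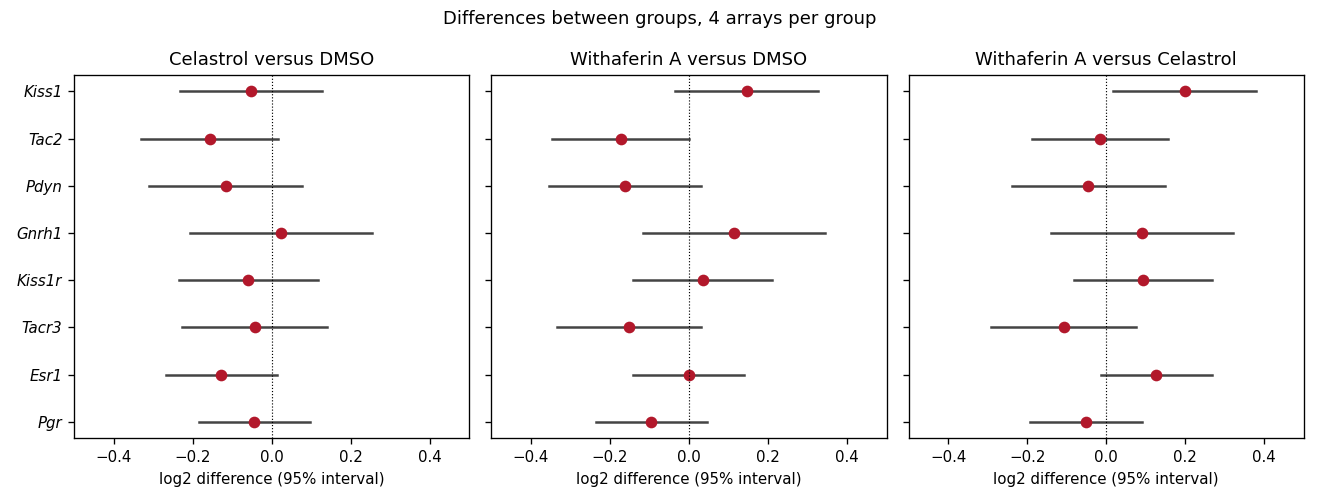
Log2 differences of the 8 genes for celastrol versus DMSO, withaferin A versus DMSO and withaferin A versus celastrol (horizontal axis, log2 difference; points, limma estimates from 12 arrays; lines, 95% intervals, unadjusted). The intervals cross 0 in all cases except Tac2 for withaferin A versus DMSO, whose upper bound is −0.00020, and Kiss1 for withaferin A versus celastrol (0.018 to 0.38).

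By direction, 7 of the 8 genes had a negative estimate for celastrol versus DMSO, where 57.4% of all genes did, and the median of the 8 was −0.056, against −0.017 over all genes. With withaferin A versus DMSO 5 of 8 were negative (51.5% of all genes), with a median of −0.048 against −0.0041. Of the estimates for withaferin A versus celastrol 4 of 8 were negative (45.1% of all genes), with a median of 0.038 against 0.013. Gnrh1 was the gene with a positive value for celastrol, but its sign turned in 3 alternatives (−0.015, −0.093 and −0.0078). Kiss1r, Tacr3 and Pgr also changed sign for celastrol when 1 array was left out, as given above, so the tally of 7 is not a stable one. Kiss1, Gnrh1 and Kiss1r were those with positive values for withaferin A versus DMSO, although Kiss1r turned negative with arrays centred on their medians and Gnrh1 without DMSO replicate 1.

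Whether the 8 genes varied together between mice of a group was examined by removing the group means and correlating the 12 deviations for each of the 28 pairs. In an exact two-sided permutation test within groups (13824 arrangements), 0 of 28 pairs passed after Benjamini-Hochberg adjustment, and 1 pair was below an unadjusted p of 0.05. That pair was Kiss1 and Kiss1r, with a Pearson r of 0.66 (exact permutation p = 0.0128, adjusted p = 0.359) and a Spearman rho of 0.55 (exact permutation p = 0.113, adjusted p = 0.8294). Without celastrol replicate 1 and withaferin A replicate 4, the arrays farthest from the Kiss1 median, r was 0.35. Leaving them out also narrows the range of Kiss1, so the lower r does not decide whether the relation rests on those arrays. By rank, 1 other pair was below an unadjusted p of 0.05, Tac2 and Gnrh1, with a rho of −0.62 (exact permutation p = 0.0425, adjusted p = 0.745) and an r of −0.51 (exact permutation p = 0.054, adjusted p = 0.737).

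For the 3 peptide genes of the arcuate kisspeptin neuron no pair passed. Kiss1 and Tac2 had an r of −0.21 and a rho of −0.13 (exact permutation p = 0.544 and 0.712, adjusted p = 0.914 and 0.93). For Kiss1 and Pdyn r was −0.15 and rho −0.084 (exact permutation p = 0.713 and 0.818, adjusted p = 0.914 and 0.93). Tac2 and Pdyn had an r of 0.099 and a rho of 0.098 (exact permutation p = 0.779 and 0.791, adjusted p = 0.914 and 0.93). The r values without the 2 farthest arrays were −0.26, 0.062 and 0.044. With 12 arrays, a p that misses the threshold does not show that the genes vary independently.

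**Figure D3:**
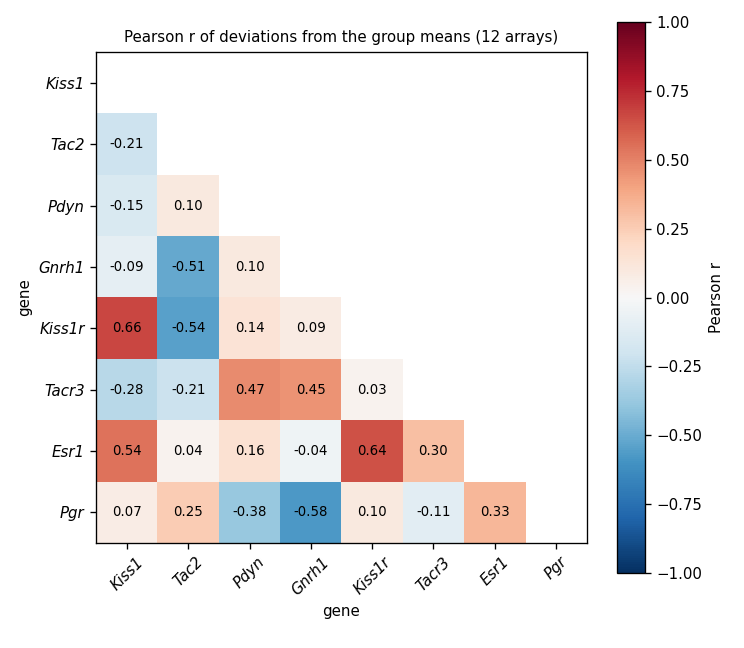
Pearson r of each pair of the 8 genes over 12 arrays after the mean of each treatment group was removed (colour scale from −1 to 1, value in each square). The highest value is 0.66 for Kiss1 with Kiss1r and the lowest −0.58 for Gnrh1 with Pgr, and 0 of 28 pairs passed the adjusted permutation test.

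The genes whose deviations were most like those of each member over the 12 arrays were taken from all genes tested, so high values are a result of that choice and carry no test. For Kiss1 these were Kremen2 (r = 0.97, rho = 0.83) and Lamtor4 (r = 0.96, rho = 0.85). For Tac2 they were Rpl24 (r = 0.90) and Cdc42se2 (r = 0.89), and for Pdyn they were Snn (r = 0.92) and Crhbp (r = 0.91). Gnrh1 was nearest to Crhr1 (r = 0.87) and Acan (r = 0.87, but 0.48 without the 2 farthest arrays). Esr1 was nearest to Irf1 (r = 0.92) and Meaf6 (r = 0.91), and Pgr to Lrrn3 and Kif5a (r = 0.92 each). Kiss1r was nearest to Taz and P4hb (r = 0.92 each), and Tacr3 to 9130023H24Rik (r = 0.91) and Cyp2w1 (r = 0.89). None of the 8 genes was among the 2 nearest of another.

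Peptides and receptors that act beside neurokinin B and dynorphin formed a list of 15 genes, of which 14 were tested (Tacr2 was dim). With celastrol 0 of the 14 rose and 1 fell, against the 0.769% of all genes that passed, and the list median was −0.050 against −0.017 over all genes. The gene that fell was Pnoc, which encodes the precursor of the opioid-related peptide nociceptin. Pnoc signal was 7.96, 7.62, 7.76 and 7.91 on the celastrol arrays and 8.09, 8.04, 8.12 and 8.05 on the withaferin A arrays, against 8.16, 8.16, 8.36 and 8.09 on the DMSO arrays. Each celastrol array lay below each array of the other groups. The difference from DMSO was −0.38 ± 0.077 (adjusted p = 0.0431), and the call was kept in 9 of 21 alternatives and lost in 12, with adjusted p from 0.021 to 0.13 and differences between −0.43 and −0.32. It was lost with the replicate block (adjusted p = 0.0818), in a fit to the 2 groups compared (0.0737) and with no filter on dim genes (0.0685). It was lost, too, without any 1 of the 4 DMSO arrays (adjusted p = 0.072 to 0.118) and without celastrol replicate 2, 3 or 4 (0.112, 0.13 and 0.0541). It was also lost without withaferin A replicate 2 or 3 (0.0531 and 0.0574), which enter the fit through the pooled spread. The mean level of the pituitary markers was higher on each celastrol array than on every DMSO array (0.30 to 1.81, against −0.15 to 0.12). That of the magnocellular genes was lower (−0.43 to −0.20, against −0.084 to 0.050). Celastrol replicate 2 held both the lowest Pnoc signal and the highest pituitary level. Celastrol replicate 3, however, had the lowest pituitary level of its group (0.30) with the second lowest Pnoc signal (7.76). Withaferin A replicates 2 and 3 had pituitary levels of 0.38 and 0.30 with Pnoc signals of 8.04 and 8.12. The part of these cells in the Pnoc difference was not tested.

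The dynorphin receptor gene Oprk1 had signals of 8.59, 8.76, 8.53 and 8.67 with celastrol and 8.43, 8.32, 8.51 and 8.26 with withaferin A, against 8.48, 8.45, 8.49 and 8.52 with DMSO. Its difference from DMSO was 0.15 ± 0.066 for celastrol (adjusted p = 0.415). Gal, the galanin precursor gene, had −0.22 ± 0.10 for celastrol (adjusted p = 0.459). With withaferin A 0 of 14 rose and 0 fell, where 0% of all genes passed, and the list median was −0.067 against −0.0041 over all genes. The members with the smallest p for withaferin A were Tac1, Npff and Galr1. Tac1, the substance P precursor gene, had 9.95, 9.97, 9.83 and 9.85 with withaferin A against 10.36, 10.32, 10.10 and 10.08 with DMSO, a difference of −0.32 ± 0.092 (adjusted p = 0.181). Npff, a precursor gene of RFamide peptides, had a difference of 0.31 ± 0.094 (adjusted p = 0.189), and the galanin receptor gene Galr1 of −0.22 ± 0.076 (adjusted p = 0.226).

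Steroid hormone signalling was represented by 17 genes, of which 11 were tested, and the others were not analysed here. With celastrol 0 rose and 0 fell, where 0.769% of all genes passed, and the median was −0.041 against −0.017 over all genes. With withaferin A 0 rose and 0 fell, where 0% of all genes passed, and the median was −0.045 against −0.0041. With shares this low, counts of 0 say nothing particular about a list of this size. Gper1, a membrane receptor gene for estradiol, had the smallest p for withaferin A. Its signal was 7.34, 7.54, 7.43 and 7.37 with withaferin A, against 6.89, 7.17, 7.16 and 7.24 with DMSO, and 7.05, 6.9999, 7.13 and 7.23 with celastrol. Each withaferin A array lay above each array of the other groups, and the difference from DMSO was 0.30 ± 0.080 (adjusted p = 0.163). Paqr8, a membrane progesterone receptor gene, had 10.81, 10.91, 10.93 and 10.83 with celastrol against 10.66, 10.64, 10.64 and 10.65 with DMSO. Its difference was 0.22 ± 0.059 (adjusted p = 0.128), and it passed in 1 alternative, an intensity trend with a robust prior (adjusted p = 0.0383). The coregulator gene Nrip1 had −0.13 ± 0.068 and the progesterone-binding protein gene Pgrmc1 −0.093 ± 0.063 with celastrol (adjusted p = 0.538 and 0.67). With withaferin A Pgrmc1 had −0.17 ± 0.063 and Pgrmc2 −0.083 ± 0.053 (adjusted p = 0.249 and 0.461).

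Genes of puberty timing and of GnRH neuron development made up a list of 22, of which 21 were tested (Mkrn3 was dim). In the celastrol comparison 0 rose and 0 fell, beside 0.769% of all genes, with a median of −0.058 against −0.017 over all genes. In that of withaferin A versus DMSO 0 rose and 0 fell, beside 0% of all genes, with a median of 0.024 against −0.0041. For celastrol the smallest p belonged to Chd7, a chromatin remodeller gene mutated in human GnRH deficiency, with 0.19 ± 0.053 (adjusted p = 0.163). Irf2bpl, a regulator of the GnRH promoter, had −0.28 ± 0.091 (adjusted p = 0.225), and Otp, a transcription factor gene of neuroendocrine neurons that is also among the hypothalamic markers above, had −0.20 ± 0.081 (adjusted p = 0.36). For withaferin A the smallest p belonged to Otx2 with 0.27 ± 0.10 (adjusted p = 0.249), Fgf8 with 0.25 ± 0.11 (adjusted p = 0.278) and Prok2 with 0.23 ± 0.11 (adjusted p = 0.326). Otx2 is a forebrain transcription factor gene, and Fgf8 and Prok2 encode signals needed for GnRH neurons to form or migrate.

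Between the compounds (withaferin A versus celastrol) 0 genes of the 3 lists rose and 0 fell, where 0.0468% of all genes passed. At an unadjusted p below 0.05 there were 7 of 14 tachykinin, opioid, RFamide and galanin genes, 2 of 11 steroid signalling genes and 3 of 21 puberty and GnRH genes, against 16.1% of all genes. Among the 14 genes 7 estimates were positive and 7 negative. The lists were chosen with earlier results of these data known, and none was tested as a set. The list medians were 0.034, 0.010 and 0.098, against 0.013 over all genes. Of the 21 puberty and GnRH genes 16 had a positive and 5 a negative estimate, where 45.1% of all genes had a negative one.

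**Figure D4:**
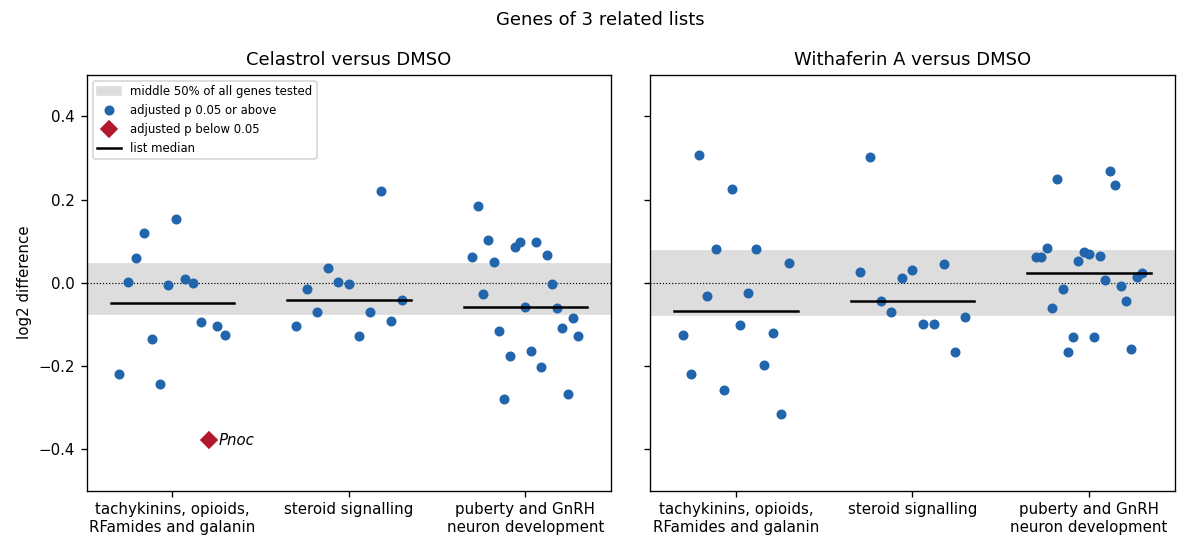
Log2 differences of the tested genes of 3 lists for celastrol versus DMSO and withaferin A versus DMSO (vertical axis, log2 difference; points, genes; black lines, list medians; grey band, middle 50% of all 14953 genes). Pnoc at −0.38 with celastrol is the single gene past the threshold (red diamond), and every list median lies inside the grey band.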

How the data were processed

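The authors deposited log2 signal values of 12 one-colour Affymetrix arrays. RMA, which corrects background and normalizes across arrays, is named per the submitters' processing notes, with no version. Array medians ran from 6.89 to 6.98, and correlations between arrays from 0.981 to 0.994. Depth does not apply to arrays, and their number limits the precision.

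Of 35556 probe sets, 21789 had 1 gene symbol in the platform table; for 999 genes with several, the one with the highest mean was used. Dim genes, those averaging under log2 5.81 (the 25th percentile), were left out. A model with 3 group means was fitted in limma 3.58.1 (R 4.3.3), which tested 3 comparisons with p-values adjusted by Benjamini-Hochberg over 14953 genes. The labels call the arrays biological replicates, and SE pools the 3 groups. The authors' log2 scale was kept. A marker level is the mean log2 signal of the markers minus their mean on the DMSO arrays.

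The members, lists and naming rule were chosen with earlier results of these data known. The rule named the 8 genes, list genes past the threshold or else the 3 with the smallest p versus DMSO, and the 2 genes most like each member. The test steps were tried on simulated data. Alternatives were other filters, probe set means, renewed normalization, centring, array weights, an intensity trend, fits to 2 groups, a replicate block and leaving out each array.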

Additional observations from a re-analysis of the deposited data

Results flagged for a closer look

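Among the 24 gene-by-group sets of 4 arrays, 2 held an array far from the others; chance alone marks about 1 in 20 such sets. For Tac2, celastrol replicate 2 was the highest of its group at 10.22, and its gap to the next array was 0.862 of the group's range. Without it the celastrol difference from DMSO was −0.23 (adjusted p = 0.236). For Pdyn, celastrol replicate 3 was the lowest at 7.63, with a gap of 0.861 of the range, and without it the difference was −0.044 (adjusted p = 0.938).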

How the results depend on the processing

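In the 21 alternatives, 0 of the members tested passed in any comparison, with a lowest adjusted p of 0.144 for a member. All 8 genes were tested except with the filter at the 50th percentile (log2 7.49), which left out Kiss1, Gnrh1 and Esr1. For pairs, 0 of 28 passed by Spearman's rho, with renewed quantile normalization, with arrays centred on their medians or without any single array; the other alternatives were not run for pairs. The replicate block also gave 0 members in each comparison. With it the count over all genes for celastrol versus DMSO went from 115 to 54. Same-numbered arrays correlated between −0.28 and 0.12 after group means were removed, which gave no sign of a pairing by number. Of 495 values for members, 18 changed sign. Gnrh1 for celastrol versus DMSO turned to −0.015 with array weights, −0.093 without DMSO replicate 1 and −0.0078 without celastrol replicate 4. For withaferin A versus DMSO, Gnrh1 turned to −0.0019 without DMSO replicate 1 and Kiss1r to −0.011 with arrays centred on their medians. Esr1 in that comparison turned to 0.0073 with array weights and to between 0.0047 and 0.021 without DMSO replicates 1, 2 or 3 (0.0047, 0.014 and 0.010) or withaferin A replicates 1 or 3 (0.021 each). For celastrol versus DMSO, Kiss1r turned to 0.0070, Tacr3 to 0.0062 and Pgr to 0.0058 without celastrol replicate 2, DMSO replicate 3 and DMSO replicate 1. For withaferin A versus celastrol, Tac2 turned to 0.024 with renewed quantile normalization, 0.061 without celastrol replicate 2 and 0.024 without withaferin A replicate 1, and Pdyn to 0.021 without withaferin A replicate 4. Leaving out single arrays gave −0.093 to 0.078 for Gnrh1, −0.13 to 0.0070 for Kiss1r, −0.071 to 0.0062 for Tacr3 and −0.074 to 0.0058 for Pgr with celastrol versus DMSO. It gave −0.0019 to 0.18 for Gnrh1 and −0.031 to 0.021 for Esr1 with withaferin A versus DMSO, and −0.048 to 0.061 for Tac2 and −0.12 to 0.021 for Pdyn with withaferin A versus celastrol. The causes were not tested.

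Over all genes the count for celastrol versus DMSO, 115, ran from 6 to 207 without single arrays and from 54 to 219 in the other alternatives. For withaferin A versus DMSO, 0, it ran from 0 to 172 and from 0 to 21, and for withaferin A versus celastrol, 7, from 0 to 56 and from 0 to 29.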
